A study of Mus musculus with 16 samples.

Results

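Dual-specificity MAP kinase phosphatases were followed through a time course of lipopolysaccharide (LPS, a component of the outer membrane of Gram-negative bacteria) in RAW264.7, an established macrophage-like line from mouse. The members were taken by gene symbol as the 8 listed genes Dusp1, Dusp2, Dusp3, Dusp4, Dusp5, Dusp6, Dusp7 and Dusp16, out of 13832 genes in the deposited table. Cells were left untreated (0 min) or exposed to LPS from E. coli O111:B4 at 100 ng/ml for 15, 30, 45, 60, 75 or 90 min or for 16 h, and no genetic change to the line is given in the labels. At each of the 8 times 1 lysate gave both an input library, which is cytoplasmic RNA broken by alkali, and a library of ribosome footprints, the fragments that ribosomes shield from RNase I. The 16 libraries are therefore 16 groups of 1 library, so differences between single libraries lack a replicate check. The sole untreated culture is that of 0 min, and LPS cannot be told apart from handling or time in culture. In these bulk lysates fewer cells expressing a gene and less RNA per cell cannot be told apart either.

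MAP kinases (ERK, JNK and p38) are switched on when a threonine and a tyrosine in their activation loop are phosphorylated. Dual-specificity phosphatases remove both phosphates and so switch the kinases off. Several of their genes are themselves transcribed in response to MAP kinase signalling, which makes them negative feedback regulators, and in macrophages this feedback is known for limiting cytokine production after LPS. The members differ in place and substrate. Dusp1, Dusp2, Dusp4 and Dusp5 encode nuclear phosphatases, of which Dusp5 acts on ERK. Dusp6 and Dusp7 encode cytoplasmic phosphatases selective for ERK, Dusp16 encodes one that acts on JNK and p38, and Dusp3 encodes a small phosphatase without the kinase-docking domain of the others.

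Each library held between 6702930 and 6702932 counts, so the totals say nothing of the original depth. All 8 members passed the filter of at least 10 counts in at least 4 of 8 input and at least 4 of 8 footprint libraries, as did 9529 genes in all. The members together took 0.00838% of input counts at 0 min and 0.0299% at 16 h. In footprints their share went from 0.00961% at 0 min to its highest value, 0.0423%, at 45 min. All 10 macrophage markers passed the filter, with summed input counts between 21691 and 33799, highest at 16 h. They did not move together. At 16 h 6 were called higher and 2 lower (Csf1r and Lyz2) in input, where 28.3% of all tested genes were higher and 27% lower. In footprints 4 were higher and the same 2 lower, where 26% and 24.6% of all were. Epithelial markers summed to 0 or 1 in every library. Fibroblast markers summed to 0 at 0 and 90 min and to 42 in input and 72 in footprints at 16 h. Lymphocyte markers summed to 25 in input at 0 min and 96 at 16 h. In each of the fibroblast and lymphocyte lists only 1 gene reached 10 counts in any library. Osteoclast markers, 5 of 6 in the table and 2 through the filter, summed to 105 in input and 103 in footprints at 0 min and to 339 and 331 at 16 h. Most of these counts were Dcstamp, which was called higher at 16 h (1.92 ± 0.21 in input, edgeR adjusted p = 2.6e-06; 2.33 ± 0.21 in footprints, 1.7e-07), while Ctsk stayed at 1 or 2 at both times. The part of the marker shifts in the 16 h values of the members was not tested.

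The 8 mRNAs followed several courses. Dusp1 and Dusp2 counts were highest at 45 min. Dusp4 and Dusp16 climbed later, between 45 and 90 min, and Dusp5 was highest at 16 h. Dusp6 and Dusp7 were below their untreated levels from 45 to 90 min. At 16 h Dusp6 stood above its untreated level and Dusp7 below it. Dusp3 kept a nearly level count to 90 min. Below, a fold is the ratio to the untreated library of the same material after scaling, with a 95% interval that covers counting error only. A fitted size is the largest log2 distance of a smooth curve over 0 to 90 min from its start, or the log2 distance of the 16 h library from that start, with the adjusted p of edgeR's quasi-likelihood test over 9529 genes. The start is a fitted value and not the 0 min library, so sizes can differ from folds. Each early size that passed edgeR's test lay farther from 0 than the direct log2 ratio at 90 min (prior count 2). These early sizes thus overstate the direct change. For Dusp4 input the 2 values were 5.10 and 4.07, and for Dusp16 input 4.52 and 3.48. They were -3.55 and -2.60 for Dusp6 input and 6.26 and 4.40 for Dusp5 footprints. At 16 h a size could be the smaller value, as for Dusp6 input with 1.77 and 2.01.

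**Figure D1:**
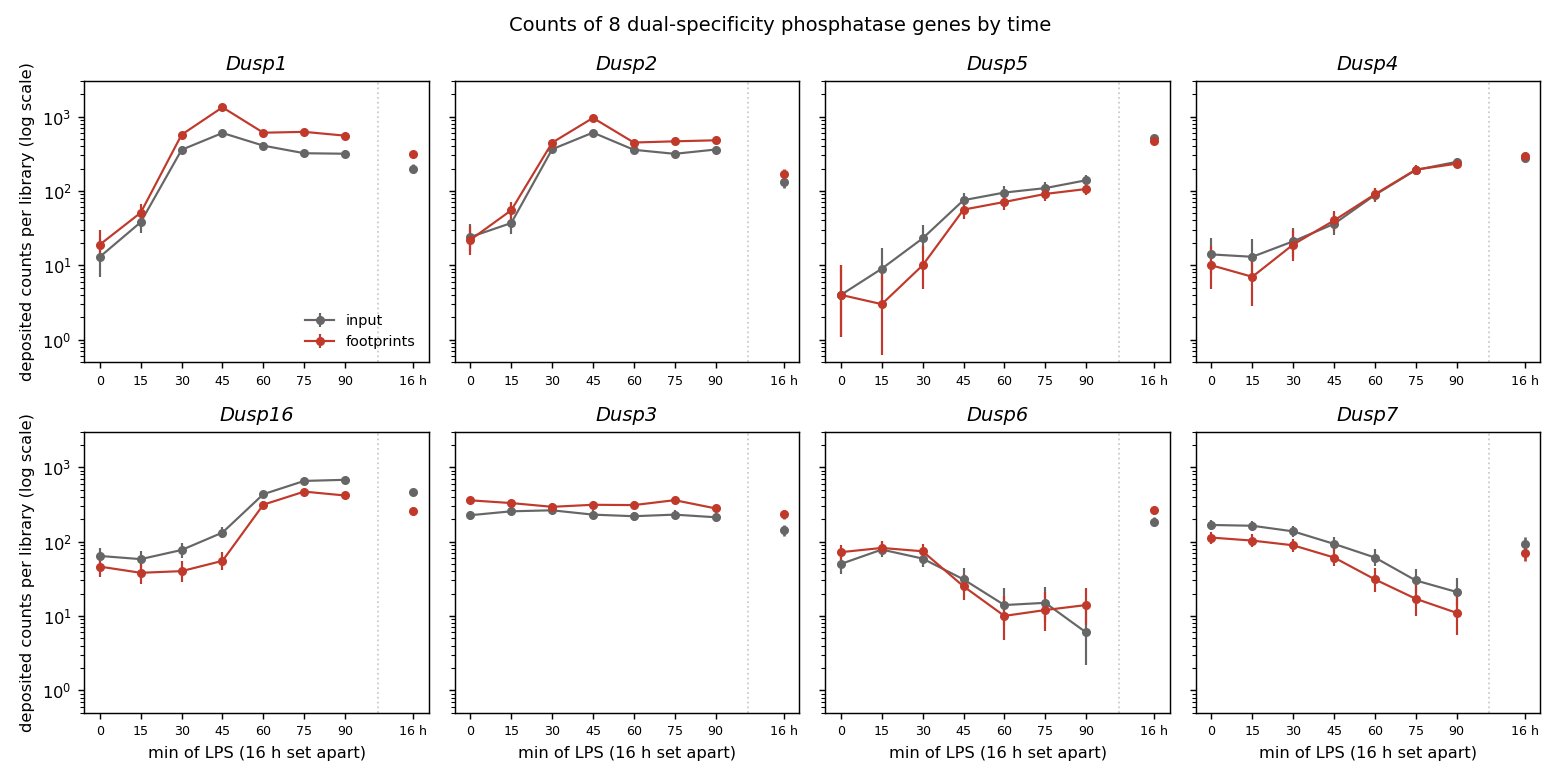
Deposited read counts per library (log axis) of the 8 phosphatase genes against minutes of LPS, with the 16 h library set apart, in input (grey) and footprints (red). Points are single libraries and bars are exact 95% Poisson intervals; Dusp1 and Dusp2 are highest at 45 min, Dusp5 at 16 h, and Dusp7 is lowest at 90 min.

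Dusp1 encodes a nuclear phosphatase that acts on p38 and JNK in macrophages, and lies at chr17:26505590-26508519 on the minus strand of GRCm38 (4 exons, coding length 1104 nt). Its input counts at 0, 15, 30, 45, 60, 75 and 90 min and 16 h were 13, 38, 357, 601, 406, 321, 316 and 200. Its footprint counts at the same times were 19, 51, 570, 1330, 606, 622, 553 and 310. The 0 min library was the lowest of each material and 45 min the highest, and every library from 30 min on was far above the first. The fold at 45 min was 48.1 (27.9 to 90.9) in input and 77.3 (49.3 to 129) in footprints. At 16 h the fold was still 17.1 (9.80 to 32.8) in input and 17.6 (11.1 to 29.6) in footprints. A smooth curve followed this sharp peak poorly, and its size of 5.12 ± 1.09 (SE) in input did not pass the test (edgeR adjusted p = 0.068), nor did 5.97 ± 1.35 in footprints (adjusted p = 0.095). The call depended on the method, since with DESeq2 the same curves had an adjusted p of 8.3e-06 in input and 5.3e-05 in footprints. The values were 0.00096 and 0.0011 with edgeR without robust moderation. That setting was added after the data were seen, and robust moderation was itself set with both results seen. With a cubic curve the input value passed (0.043). Without the 0 min library, when the curve starts at 15 min, the sizes were 2.70 and 3.32. The 16 h sizes of 3.66 ± 1.22 in input and 4.01 ± 1.46 in footprints did not pass edgeR's test either (adjusted p = 0.064 and 0.087), but DESeq2 called both (5.3e-05 and 0.00041), as did edgeR without robust moderation (0.002 and 0.0029). The input one also passed without the 90 min library (0.026) and with a cubic curve (0.019).

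Dusp2, another nuclear phosphatase of immune cells, lies at chr2:127336159-127338376 on the plus strand (4 exons, coding length 957 nt). Its input counts in time order were 24, 37, 363, 608, 357, 315, 360 and 130. Footprints of Dusp2 numbered 22, 55, 445, 958, 447, 464, 479 and 167. The course resembled that of Dusp1, with the same highest library at 45 min and a lower 16 h value. The fold at 45 min was 26.4 (17.6 to 41.5) in input and 48.1 (31.6 to 77.1) in footprints. By 16 h it was 6.04 (3.88 to 9.76) in input and 8.17 (5.22 to 13.4) in footprints. The fitted sizes over 0 to 90 min, 4.54 ± 1.2 in input and 5.21 ± 1.25 in footprints, did not pass edgeR's test (adjusted p = 0.11 in each). DESeq2 called both, with adjusted p-values of 0.0013 and 1e-04, and so did edgeR without robust moderation, with 0.0031 and 0.0016. At 16 h the sizes were 2.55 ± 1.42 in input (edgeR adjusted p = 0.21) and 2.85 ± 1.46 in footprints (0.18), which DESeq2 called (0.022 and 0.0075), as did edgeR without robust moderation (0.032 and 0.02). Without the 0 min library the sizes were 2.56 and 2.88 over the early times and 0.57 and 0.55 at 16 h, in input and footprints.

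The promoters and 3′ UTR sites below show letters that the members share or do not share. RefSeq promoter entries on GRCm38.p6, from 250 bases before to 50 after the gene start, were matched for 7 of 8 members, all but Dusp4. The Dusp3 entry has another start than the Dusp3 transcript used here. Its bases 200 to 51 before the start are chr11:101984842-101984991, whereas the transcript starts at 101987013 on the minus strand. The Dusp1, Dusp5 and Dusp16 entries also start elsewhere than their transcripts, by smaller distances. All positions given count from the start of the entry. The stretches run from 200 to 51 bases before the start. Capitals mark matches to the cyclic AMP response element (CRE, TGACGTCA), to its shorter core (TGACG or, read on the other strand, CGTCA) or, in Dusp5, to a CArG box, the element bound by serum response factor. The CArG box was added to the search after the sequences were seen.
Dusp1 (chr17:26508523-26508672, minus strand): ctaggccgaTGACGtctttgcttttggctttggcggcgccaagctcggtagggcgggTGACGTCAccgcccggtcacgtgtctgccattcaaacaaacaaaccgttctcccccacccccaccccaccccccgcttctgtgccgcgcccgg
Dusp5 (chr19:53528945-53529094, plus strand): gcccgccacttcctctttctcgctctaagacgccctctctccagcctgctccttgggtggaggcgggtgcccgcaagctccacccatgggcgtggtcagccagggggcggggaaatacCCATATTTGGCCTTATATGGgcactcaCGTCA
Dusp16 (chr6:134792679-134792828, minus strand): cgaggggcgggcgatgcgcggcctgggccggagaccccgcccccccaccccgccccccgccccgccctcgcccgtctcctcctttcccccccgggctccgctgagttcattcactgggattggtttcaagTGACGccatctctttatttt
Dusp6 (chr10:99263031-99263180, plus strand), shown as a member that fell early and holds none of the 3 motifs: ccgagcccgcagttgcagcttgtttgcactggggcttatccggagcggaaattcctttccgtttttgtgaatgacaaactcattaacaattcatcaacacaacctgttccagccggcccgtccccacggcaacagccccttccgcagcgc

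Dusp1 alone among the 7 matched members held the full CRE, at positions -143 to -136 from its start, and 1.79% of 32817 RefSeq promoters of the same length hold one. The shorter TGACG, which the full CRE contains, was found in Dusp1, Dusp2, Dusp5 and Dusp16. In Dusp2 the only match lies after the start, at positions 5 to 9, and in the other members with a match it lies before the start. The 4 members that held TGACG are those with an entry whose fitted input size over 0 to 90 min was above 1. None of the other 3 (Dusp3, Dusp6 and Dusp7) held it, but the Dusp3 window is not at the start of the transcript used here. TGACG occurs in 20.8% of all promoters, so single matches are common, and the split by size was drawn after the values were known. Dusp5 alone held the CArG box, as 2 adjoining copies at positions -82 to -73 and -72 to -63, against 1.63% of all promoters with at least 1. No member window held the NF-kB letters (GGGA, any base, TTTCC; 0.411% of all promoters), the AP-1 letters TGACTCA (5.20%) or TATAAA (13.6%). The Sp1 letters GGGCGG were in 6 member windows and 35.6% of all promoters, and the E-box CACGTG was in Dusp1 and Dusp2 and 7.15% of all. All motifs were searched on both strands, and a match is a description of letters, not of binding.

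AU-rich elements in 3′ UTRs, built on the pentamer AUUUA, mark many short-lived mRNAs. Dusp1 and Dusp2 had 4 AUUUA copies each in 3′ UTRs of 690 and 581 nt, or 5.80 and 6.88 per kb, against a median of 1.35 per kb over 8932 tested genes. The other members had between 0 (Dusp7) and 1.80 per kb (Dusp4). Dusp3 among them also held 4 copies, in a 3′ UTR of 3591 nt, and 28.1% of the tested genes hold 4 or more. The nonamer form was present in Dusp1 only, with 2 matches, and in 7.58% of the tested genes. The first of these in Dusp1, at bases 95 to 119 of its 3′ UTR, is shown with the nonamer in capitals.
Dusp1 3′ UTR site: gcugguccUUAUUUAUUuaacaccc

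Dusp5, the nuclear phosphatase specific for ERK, lies at chr19:53529109-53542431 on the plus strand (4 exons, coding length 1155 nt). Its input counts in time order were 4, 9, 23, 75, 95, 109, 139 and 514. Footprints of Dusp5 numbered 4, 3, 10, 56, 71, 91, 106 and 467. Both series climbed from 30 min on without a peak, and the 16 h library was the highest. At 90 min its fold was 37.8 (14.4 to 141) in input and 32.1 (12.2 to 120) in footprints. In the fit over 0 to 90 min Dusp5 rose in both materials, by 5.42 ± 0.35 for input (edgeR adjusted p = 5.1e-07) and 6.26 ± 0.51 for footprints (adjusted p = 4.5e-06). At 16 h the fitted rise was 7.44 ± 0.32 for input (adjusted p = 2.6e-10) and 8.28 ± 0.46 for footprints (adjusted p = 4.2e-09). The direct fold at 16 h was 143 (55.6 to 528) in input and 126 (48.7 to 463) in footprints, and its wide interval comes from the 4 counts of each untreated library. Without the 0 min library, when the curve starts at 15 min, the calls remained with sizes of 3.78 and 4.91 over the early times and 5.81 and 6.97 at 16 h, in input and footprints.

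Dusp4, a nuclear phosphatase of all 3 kinase branches, lies at chr8:34807297-34819894 on the plus strand (4 exons, coding length 1197 nt). Its input counts were 14, 13, 21, 36, 88, 191, 246 and 279. Its footprint counts were 10, 7, 19, 40, 90, 193, 232 and 294. Input and footprints ran close together, stayed near the untreated value until 30 min and then climbed at each sampled time. The fitted rise of Dusp4 over 0 to 90 min was 5.10 ± 0.35 for input (edgeR adjusted p = 3.1e-06) and 5.96 ± 0.37 for footprints (adjusted p = 1.5e-07). The fold was 19.1 (11.2 to 35.5) at 90 min and 22.2 (13.0 to 41.2) at 16 h in input. In footprints it was 28.1 (15.0 to 59.3) and 31.6 (17.0 to 66.7), so the 90 min and 16 h intervals overlapped in both materials. The rise at 16 h also passed the test, at 5.15 ± 0.39 for input (adjusted p = 4.6e-07) and 5.98 ± 0.40 for footprints (adjusted p = 2.3e-08).

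Dusp16, which acts on JNK and p38, lies at chr6:134715473-134792625 on the minus strand and is the longest member (7 exons, coding length 1983 nt). Its input counts were 64, 58, 77, 132, 433, 653, 676 and 459. Footprints of Dusp16 numbered 46, 38, 40, 55, 313, 469, 416 and 255. The step came between 45 and 60 min in both materials, but the 45 min input library already stood above the untreated one and the footprint library did not beyond counting error. The fold at 45 min was 2.15 (1.58 to 2.94) in input and 1.32 (0.876 to 2.00) in footprints. At 90 min it was 11.5 (8.89 to 15.1) and 10.9 (8.06 to 15.2). Dusp16 rose in input over 0 to 90 min by 4.52 ± 0.68 (edgeR adjusted p = 0.022) and at 16 h by 3.69 ± 0.79 (adjusted p = 0.017). The early call was lost without the 15 min library (adjusted p = 0.081), the 30 min library (0.053) or the 75 min library (0.063), and the 16 h call without the 15 min library (0.051). In footprints the fitted sizes of 4.73 ± 0.99 over 0 to 90 min (adjusted p = 0.072) and 3.43 ± 1.19 at 16 h (adjusted p = 0.078) did not pass. DESeq2 called both, with 0.00017 and 0.018, and edgeR did with a linear curve (0.02 and 0.024), a cubic curve (0.0049 and 0.017) or no robust moderation (0.00057 and 0.0025).

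Dusp6, the cytoplasmic phosphatase that opposes ERK in growth factor signalling, lies at chr10:99263231-99267488 on the plus strand (3 exons, coding length 1146 nt). Its input counts were 50, 78, 59, 31, 14, 15, 6 and 185. Its footprint counts were 72, 82, 74, 25, 10, 12, 14 and 268. Counts up to 30 min were at or above the untreated value, those from 45 to 90 min were below it, and the 16 h library was the highest of each material. The fold was 1.57 (1.08 to 2.28) at 15 min in input but 1.19 (0.854 to 1.65) in footprints. At 90 min it was 0.131 (0.0458 to 0.305) in input and 0.235 (0.123 to 0.421) in footprints. At 16 h it was 4.12 (3.0 to 5.75) in input and 4.00 (3.08 to 5.27) in footprints. Dusp6 fell over 0 to 90 min, with fitted sizes of -3.55 ± 0.46 for input (edgeR adjusted p = 0.00028) and -3.25 ± 0.70 for footprints (adjusted p = 0.041). It rose at 16 h, with sizes of 1.77 ± 0.30 for input (adjusted p = 0.00021) and 1.72 ± 0.48 for footprints (adjusted p = 0.022), so the direction turned between 90 min and 16 h. The early footprint call was lost without the 15 min library (adjusted p = 0.11) or the 75 min library (0.16), and the 16 h footprint call without the 75 min library (0.051) or with DESeq2 (0.2). With time on a square root scale no Dusp6 call was made, with adjusted p-values between 0.12 and 0.24.

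Dusp7, the other cytoplasmic ERK phosphatase, lies at chr9:106368632-106375724 on the plus strand (3 exons, coding length 1269 nt). Its input counts were 167, 163, 137, 93, 61, 30, 21 and 93. Its footprint counts were 113, 103, 89, 61, 31, 17, 11 and 70. Each library from 0 to 90 min was lower than the one before it in both materials, and the 16 h library lay between the 0 and 60 min values. Dusp7 fell over 0 to 90 min, with fitted sizes of -3.14 ± 0.21 for input (edgeR adjusted p = 6.4e-07) and -3.43 ± 0.28 for footprints (adjusted p = 1.3e-06), or to folds of 0.137 (0.0825 to 0.216) and 0.118 (0.0572 to 0.219) at 90 min. At 16 h it was still lower in input (-0.71 ± 0.19, adjusted p = 0.0059). The lower 16 h value in footprints, -0.60 ± 0.24, passed narrowly (adjusted p = 0.047). It missed the threshold when the 0, 15, 45, 60, 75 or 90 min library was left out, with adjusted p-values between 0.051 and 0.075, and with a cubic curve (0.068). DESeq2 called neither 16 h value (0.067 in input and 0.23 in footprints), and the square root scale lost both (0.17 and 0.22) and the early footprint call (0.067).

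Dusp3, the small phosphatase of ERK and JNK, lies at chr11:101971143-101987013 on the minus strand (5 exons, coding length 558 nt). Its input counts were 226, 255, 263, 230, 219, 230, 212 and 143. Its footprint counts were 358, 329, 293, 312, 309, 360, 279 and 231. Counts from 0 to 90 min lay within a narrow band, and the 16 h library was the lowest of each material. The fitted sizes over 0 to 90 min were 0.08 ± 0.13 in input (edgeR adjusted p = 0.69) and 0.11 ± 0.14 in footprints (adjusted p = 0.8). At 16 h Dusp3 fell, with sizes of -0.56 ± 0.16 for input (adjusted p = 0.0084) and -0.47 ± 0.17 for footprints (adjusted p = 0.027), or to folds of 0.705 (0.568 to 0.873) and 0.694 (0.586 to 0.821). The footprint call was lost without the 0 min library (0.077), and DESeq2 made neither call (0.05 and 0.083).

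**Figure D2:**
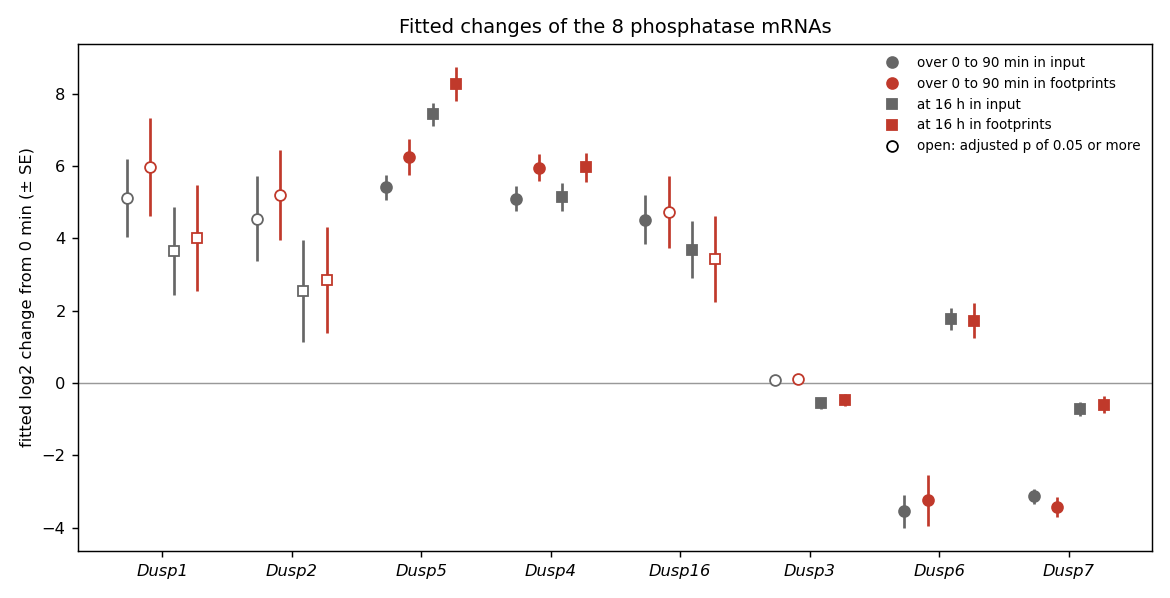
Fitted log2 change from the fitted value at 0 min (y axis, bars ± SE of the fit) of each phosphatase mRNA, over 0 to 90 min (circles) and at 16 h (squares), in input (grey) and footprints (red). Open symbols have an adjusted p of 0.05 or more; Dusp1 and Dusp2 are large but open, Dusp5 and Dusp4 are filled and above 5, and Dusp6 lies below 0 early and above 0 at 16 h.

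Over the members, 5 of 8 passed the test in input over 0 to 90 min, 3 higher (Dusp4, Dusp5, Dusp16) and 2 lower (Dusp6, Dusp7), where 27.1% of all tested genes passed, 15.2% higher and 11.9% lower. In footprints 4 of 8 passed over the same time, 2 higher (Dusp4, Dusp5) and the same 2 lower, against 21.8% of all genes, 12.7% higher and 9.13% lower. At 16 h 6 of 8 passed in input, 4 higher and 2 lower, against 55.3% of all genes, 28.3% higher and 27% lower, so this count stands near the background. In footprints 5 of 8 passed at 16 h, 3 higher and 2 lower, against 50.6% of all genes, 26% higher and 24.6% lower, which is again near it. Both readings depend on robust moderation. Without it edgeR called all 8 members at 16 h in each material, 6 higher and 2 lower. Of the 9529 tested genes 5295 then passed in input and 4777 in footprints. DESeq2 called 5 members higher and 2 lower over 0 to 90 min in each material. Of the 9529 tested genes it called 1677 in input (1054 higher, 623 lower) and 1438 in footprints (988 higher, 450 lower). At 16 h it called 6 members higher and 0 lower in input and 5 higher and 0 lower in footprints. Its late calls are therefore not those of edgeR. Of all tested genes it then called 4154 in input (2171 higher, 1983 lower) and 3743 in footprints (1848 higher, 1895 lower). The median fitted size of the 8 members over 0 to 90 min was 4.53 in input and 4.97 in footprints. The medians over all tested genes were -0.04 and -0.07. These are medians of fitted sizes, which for the called members overstate the direct early change. At 16 h the members' median was 3.10 in input and 3.14 in footprints, and those of all genes were 0.01 and 0.00. Without the 90 min library, when the early curve ends at 75 min, the calls of Dusp4, Dusp6 and Dusp7 in early input remained, with sizes of 4.09, -2.52 and -2.34.

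Because counts grow with mRNA length, the members were compared with each other per kb, input by transcript length and footprints by coding length, and given as shares of the 8 together. The features counted are not given, so the footprint shares assume that the counts lay in the coding sequence of the 1 transcript used. Dusp3 has the shortest coding length of the 8 (558 nt) and the longest 3′ UTR (3591 nt), and its share rests on this assumption. Among untreated cells Dusp3 held 73.9% of the footprint level of the 8, ahead of Dusp7 with 10.3% and Dusp6 with 7.23%. In untreated input Dusp7 and Dusp3 led with 32.2% and 31.5%, on 167 and 226 counts. At 45 min the order had changed, with Dusp1 at 40.9% and Dusp2 at 34.0% of the footprint level and Dusp3 at 19.0%. By 90 min Dusp1, Dusp2 and Dusp3 each held 24.8% of footprints, on 553, 479 and 279 counts, followed by Dusp16 with 10.4% and Dusp4 with 9.61%. Dusp6 and Dusp7 then held 0.605% and 0.43%. At 16 h Dusp3 (21.4%) and Dusp5 (20.9%) led in footprints, while Dusp5 led in input with 29.4%, followed by Dusp4 with 14.4% and Dusp1 with 14.2%.

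**Figure D3:**
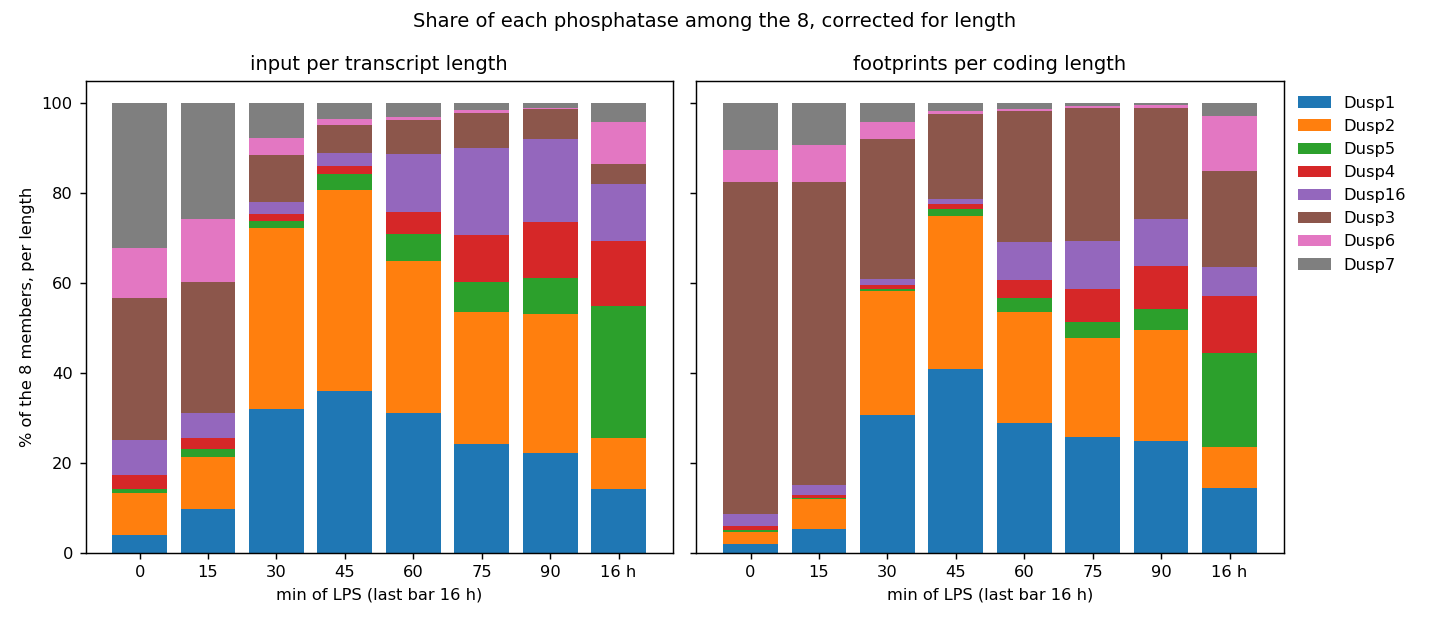
Share of each phosphatase in the summed level of the 8 (y axis, %), by time (x axis, minutes, last bar 16 h). Levels are deposited counts per kb, of transcript in input (left) and of coding sequence in footprints (right). Lengths are those of 1 transcript per gene, and the features counted are not given. Each bar is 1 library; Dusp3 (brown) takes 73.9% of footprints at 0 min and 19.0% at 45 min, when Dusp1 (blue) and Dusp2 (orange) take 40.9% and 34.0%.

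Ribosome density, the footprint level over the input level of the same lysate, addresses the question in the series' design, whether ribosome loading shifts with LPS. No member passed the test for a change in density over 0 to 90 min (0 of 8 by edgeR, 0 at an unadjusted p under 0.05 and 0 by DESeq2), where 1.28% of all genes passed, 1.14% higher and 0.136% lower. None passed at 16 h either (0 of 8 by each of the same counts), where 0.504% of all genes passed, 0.378% higher and 0.126% lower. The fitted density sizes over 0 to 90 min ran from -0.54 ± 0.39 (Dusp6) to 0.85 ± 0.68 (Dusp5), on standard errors between 0.19 and 0.68, so moderate shifts were not detectable here.

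The mean density over all times was compared with that of the typical gene. It passed the test in 7 of 8 members, 5 higher and 2 lower, where 85% of all genes passed, 43.6% higher and 41.5% lower, so passing is no mark of these genes. These values set whole-gene footprint counts against whole-gene input counts, with no correction for length, so they give no order among the members. Higher or lower than the typical gene likewise carries no correction for the coding part of each transcript. Per kb the order can turn: at 0 min Dusp3 had a level of 86.9 in footprints and 7.24 in input (scaled CPM per kb), and Dusp1 one of 2.33 and 0.93. Dusp1 stood at 1.03 ± 0.07 (log2, edgeR adjusted p = 6.6e-12), Dusp3 at 0.70 ± 0.06 (adjusted p = 3.7e-10) and Dusp2 at 0.68 ± 0.06 (adjusted p = 1.4e-09). Dusp6 stood at 0.48 ± 0.12 (adjusted p = 0.0012). Dusp4 was at 0.21 ± 0.09 (adjusted p = 0.032), a call lost with DESeq2 (0.1) and without the 45, 60, 75, 90 min or 16 h library (0.062 to 0.099), and with scaling by total counts its value was -0.02. Dusp5 was at -0.11 ± 0.10 (adjusted p = 0.4), but with total counts at -0.35 ± 0.10 (adjusted p = 0.0042), which passed. Dusp7 and Dusp16 were lower than the typical gene, at -0.44 ± 0.09 (adjusted p = 0.00011) and -0.45 ± 0.08 (adjusted p = 1.4e-05).

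Single lysates gave the density at each time. Dusp1 density was 1.60 (0.750 to 3.53) at 0 min, 2.60 (2.36 to 2.87) at 45 min, its highest, and 1.78 (1.57 to 2.02) at 60 min. The 45 and 60 min intervals did not overlap, but they cover counting error only. Dusp16 density was 0.787 (0.527 to 1.17) at 0 min, 0.490 (0.351 to 0.676) at 45 min, its lowest, and 0.863 (0.743 to 1.00) at 60 min. The 45 min library pair thus held the highest value of Dusp1 and Dusp2 and the lowest of Dusp16, which rests on 55 footprint and 132 input counts. Dusp6 density of 2.82 (1.02 to 8.97) at 90 min rests on 14 and 6 counts and is too imprecise to rank. Dusp7 density stayed between 0.606 and 0.839 at all 8 times, while its counts fell, and Dusp3 density between 1.34 and 1.86.

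**Figure D4:**
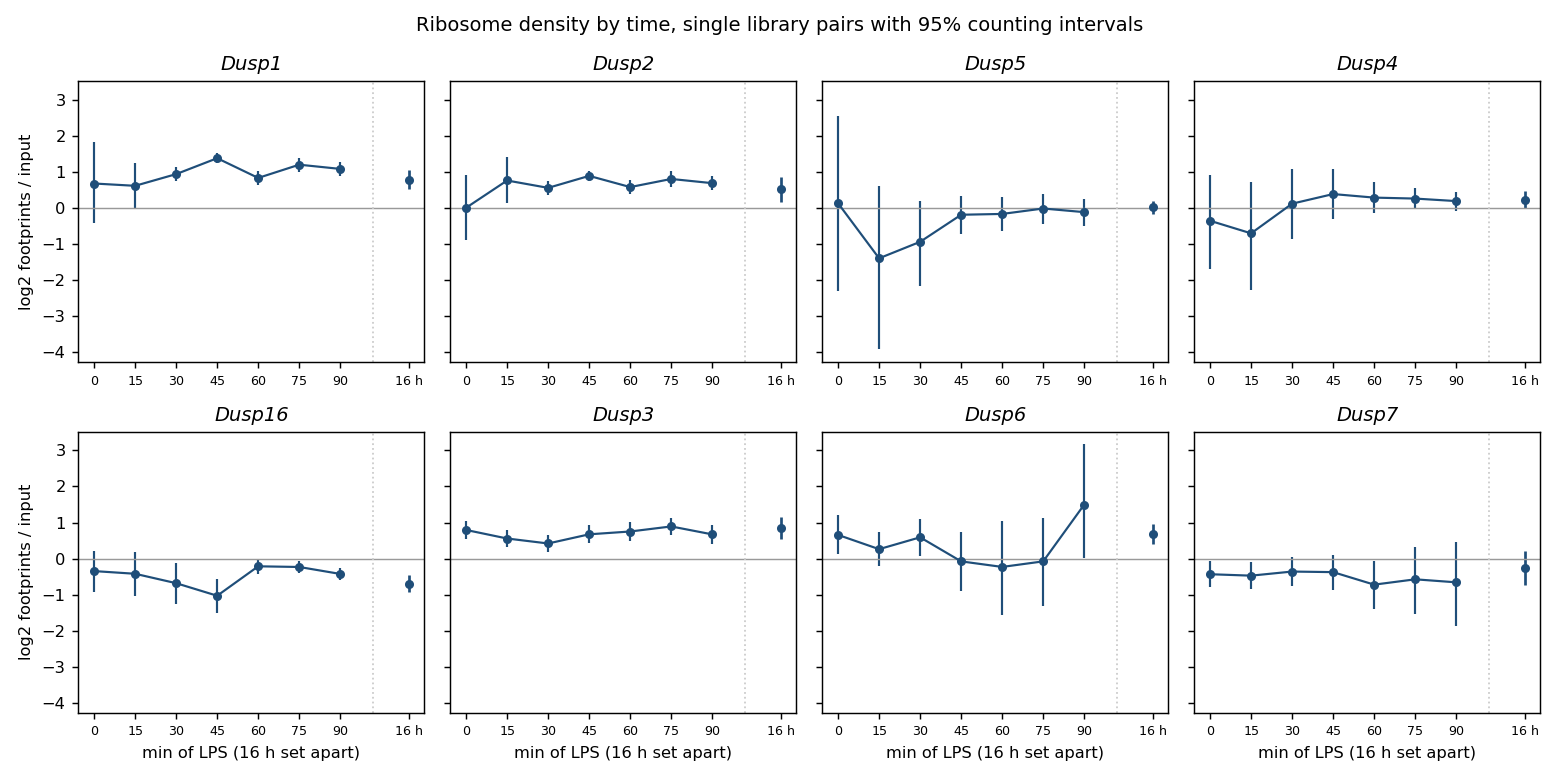
Ribosome density as log2 of footprints over input (y axis) against minutes of LPS, with 16 h set apart, for each phosphatase. Points are single pairs of libraries from 1 lysate and bars are 95% counting intervals; Dusp1 and Dusp3 lie above 0 at all times, Dusp7 and Dusp16 lie below it, and the Dusp5 intervals at 0 and 15 min are wide.

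Likeness of course was measured as the root-mean-square difference in log2 ratio to 0 min over the 14 treated libraries, as a description with no test. The ratios of all libraries of a material share its single 0 min library. Among the members the closest pairs were Dusp1 and Dusp2 (0.79), Dusp4 and Dusp16 (0.94) and Dusp6 and Dusp7 (1.11). The median distance to all tested genes was 4.54 for Dusp1, 3.85 for Dusp2, 3.09 for Dusp4 and 2.42 for Dusp16. It was only 1.65 for Dusp6 and 1.57 for Dusp7, so their 1.11 is a weaker likeness. At 16 h their log2 ratios in input were 2.01 and -0.67. Over all tested genes Dusp1 was closest to Zfp36 (0.70), which encodes a protein that destabilises AU-rich mRNAs, and to Tnfaip3 (0.75), which encodes an inhibitor of NF-kB signalling. Dusp2 was closest to Junb (0.38), an AP-1 subunit gene, then Pim1 (0.72) and Nfkbia (0.78), the gene of the NF-kB inhibitor. Dusp4 was closest to Slfn2 (0.38), Fosl1 (0.60) and Cdc42ep2 (0.60), and Dusp16 to Ets2 (0.51), Itga5 (0.51) and Relb (0.54). The genes nearest to Dusp5 included Ccrl2 (0.78) and Socs3 (0.78). Of the members that fell early, Dusp7 was closest to Gpr146 (0.31), Pla2g15 (0.39) and Bhlhe41 (0.46), and Dusp6 to S1pr2 (0.75), Sh2d3c (0.79) and Themis2 (0.81). Dusp3 did not move by 1 log2 unit in both materials and was not matched.

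Over 0 to 90 min the other genes of the pathway that passed had smaller sizes than the called members. Of 80 genes in 8 lists 68 were in the table and 52 passed the filter. In input over that time 15 of the 52 were called higher and 3 lower, where 15.2% of all tested genes were higher and 11.9% lower. In footprints 5 of the 52 were higher and 6 lower, where 12.7% and 9.13% of all were. The largest called size among the 52 was 1.69 in input and 2.07 in footprints, both a fall of Map3k1, the gene of a kinase upstream of JNK and ERK. The splits of the 52 moved with the scaling: by total counts alone the calls were 8 higher and 8 lower in input, and 2 higher and 16 lower in footprints. Such scaling lowers every log2 ratio to 0 min, by 0.12 in input and 0.28 in footprints at 90 min and by 0.16 and 0.11 at 16 h. The called members kept their directions under it. At 16 h 19 of the 52 were called higher and 8 lower in input, and 11 higher and 10 lower in footprints (13 and 14, and 10 and 11, with total counts). Of all tested genes 28.3% were then higher and 27% lower in input, and 26% and 24.6% in footprints. Some 16 h sizes among the 52 exceeded those of called members. Map2k6, the gene of an activator of p38, fell (-4.28 ± 0.58 in input, edgeR adjusted p = 2.4e-05; -4.60 ± 0.66 in footprints, 2.6e-05), and Map3k20 rose (1.85 ± 0.10 in input, adjusted p = 2.5e-09; 1.37 ± 0.12 in footprints, 1.2e-07).

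Of the other inducible phosphatases of the family, Dusp10, whose product acts on JNK and p38, rose in input by 1.14 ± 0.33 over 0 to 90 min (edgeR adjusted p = 0.036, or 0.052 with total counts) and by 2.27 ± 0.31 at 16 h (adjusted p = 2.7e-05). In footprints its early size was 1.5 ± 0.44 (adjusted p = 0.055), and it rose by 2.30 ± 0.43 at 16 h (adjusted p = 0.00033). Dusp8, a phosphatase of JNK and p38, did not pass the filter. Its input counts were 0, 0, 1, 21, 19, 18, 20 and 33 and its footprint counts 0, 0, 0, 2, 1, 8, 3 and 9. With the untreated count set to a floor of 3, the ratio of its input level was 7.29 at 45 min and 12.3 at 16 h. No interval was computed for these ratios. Of the 5 tested atypical dual-specificity phosphatases none passed in input over 0 to 90 min, and Dusp19 fell in footprints by 0.61 ± 0.17 (adjusted p = 0.035).

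Among 6 tested phosphatases of other families that act on MAP kinases, 4 rose and 1 fell in input early, and the gene that fell was Ppm1d (-0.63 ± 0.13, edgeR adjusted p = 0.0041, and -0.83 ± 0.14 in footprints, adjusted p = 0.00053). Of the 7 tested MAP kinases 1 rose and 1 fell early in each material. The first was Mapk6, an atypical MAP kinase (0.71 ± 0.08 in input, adjusted p = 7.3e-05), and the second Mapk14, which encodes p38 alpha. Of 6 MAP kinase kinases, Map2k3, an activator of p38, rose in both materials (0.77 ± 0.10 in input, adjusted p = 8.4e-05; 0.47 ± 0.11 in footprints, adjusted p = 0.011, or 0.1 with total counts). Of 17 kinases one step further up and their partners 6 rose and 1, Map3k1, fell in input (-1.69 ± 0.13, adjusted p = 4.1e-06). Of 7 kinases activated by MAP kinases, Mapkapk2, a p38 substrate that controls cytokine mRNAs, likewise rose (0.71 ± 0.08 in input, adjusted p = 0.00014; 0.53 ± 0.10 in footprints, adjusted p = 0.0012). Of 3 Sprouty and Spred inhibitors, Spred1 was called higher in input (0.53 ± 0.07, adjusted p = 6e-05) and lower in footprints (-0.39 ± 0.11, adjusted p = 0.0014). In density none of the 52 passed over 0 to 90 min, Spred1 included, and at 16 h Mapk6 was higher by 0.85 ± 0.18 (adjusted p = 0.036, or 0.076 with total counts).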

How the data were processed

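Ribosome footprints and cytoplasmic input RNA were sequenced at 8 times, with 1 library each. Per the labels' protocols, cells were lysed with cycloheximide, about 10% of the lysate was kept as input, footprints came from monosome fractions after RNase I, and fragments of 25 to 35 nt were taken after removal of ribosomal RNA. The deposited table holds the authors' read counts per gene and, per the file headers, a second set of values normalised with DESeq2, a signal that the authors scaled per library and that was not used in the tests. The submitters' processing notes name Bowtie 0.12.8, DESeq2 1.18.1 and mm10. The features counted and the use of strand or of reads with several matches are each not given in the sources used here, nor is the step that made library totals nearly equal.

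The deposited counts were scaled by TMM and fitted with edgeR 4.0.16 in R 4.3.3 (quasi-likelihood F-test, robust moderation, Benjamini-Hochberg adjustment over 9529 genes, threshold 0.05). Each material was fitted by a curve in minutes with linear and quadratic terms plus a 16 h term (4 residual degrees of freedom). Density was tested over 16 libraries as the interaction of material and time terms, blocked by time point (4 degrees), and its mean level with a material term (7 degrees). Robust moderation was set with results under both settings seen. With 1 library per group, p-values measure scatter about the curve, which may be technical, and take the single 16 h library to scatter as the others do. DESeq2 1.42.0 and the other settings in the closing section were alternatives. Scripts were tested on simulated data. Intervals are exact 95% binomial ones on counts, and with no molecular identifiers given they cover counting error only. Annotation is GENCODE M21, with 1 transcript per gene (best APPRIS rank, then longest coding sequence), and it gave lengths for 9127 tested genes. Every member was described. Other genes were named as the called gene of largest size in each list over 0 to 90 min in input and footprints, and as the 3 nearest genes by likeness (prior count 2), of which 1 is not reported here. Mapk14, Dusp8, Map2k6, Map3k20, Csf1r, Lyz2, Dcstamp and Ctsk are named outside that rule, after their values were seen. Members and lists were chosen with earlier results of these data known.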

Additional observations from a re-analysis of the deposited data

How the results depend on the processing

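Of 864 values of single members under the alternatives, 775 kept direction and call, 34 lost the call, 28 gained it and 27 changed sign. The count of members called in footprints over 0 to 90 min, 4 as reported, was 7 with DESeq2, 7 without robust moderation and 2 with time on a square root scale. Of all tested genes 1438, 1951 and 821 passed under these settings, against 2077 as reported. The member count was 3 to 4 when 1 time point was left out. The setting without robust moderation was added after the data were seen, and robust moderation was itself set with both results seen. At 16 h in footprints the 5 calls became 3 on the square root scale and 8 without robust moderation, with a range of 3 to 5 when a time point was left out; it was 3 without 0 min and 3 without 75 min. Of all tested genes 4255 passed at 16 h in footprints on the square root scale and 4777 without robust moderation, against 4818 as reported. Without robust moderation the member calls in input were 7 over 0 to 90 min and 8 at 16 h. Of all tested genes 2493 and 5295 then passed. Leaving out a time point gave 4 to 5 calls in early input, 5 to 7 at 16 h in input, 6 to 7 in density level and 0 in density change. No sign change touched a called value except that of Dusp4 in density level, -0.024 with total counts. Dusp3 over 0 to 90 min turned to -0.18 in input, -0.16 in footprints and -0.16 in density with total counts, -0.052 in input with a linear term, and -0.18 in footprints and -0.33 in density with a cubic curve. Leaving out a time point gave Dusp3 -0.16 to 0.14 in input (below 0 without 0 or 75 min), -0.055 to 0.19 in footprints (below 0 without 75 min) and -0.22 to 0.35 in density (below 0 without 75 or 90 min). Density over 0 to 90 min turned to 0.69 for Dusp6 and -0.55 for Dusp16 with a cubic curve, and ranged from -0.90 to 0.44 for Dusp6 (above 0 without 0 min) and from -0.31 to 0.43 for Dusp16 (below 0 without 60 or 90 min) when a time point was left out. Density at 16 h turned to -0.021 for Dusp6 with DESeq2 size factors and with total counts and to -0.090 with DESeq2, and to -0.14 for Dusp1 and -0.056 for Dusp2 with a linear term. Leaving out a time point gave -0.071 to 0.13 for Dusp6 (below 0 without 15 or 30 min), -0.12 to 0.51 for Dusp1 (below 0 without 0 or 30 min) and -0.24 to 0.44 for Dusp2 (below 0 without 0 min). The cause was not tested.

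Over all genes, calls in early footprints went from 2077 (1207 higher, 870 lower) to 3541 with total counts (723 and 2818) and to 821 on the square root scale. Total counts moved the split in early input from 1448 higher and 1131 lower to 1007 and 1991, at 16 h in input from 2692 and 2577 to 2107 and 3376, in density change over 0 to 90 min from 109 and 13 to 93 and 55, and in density level from 4150 and 3951 to 3056 and 4800. Early input went from 2579 to 1677 with DESeq2, 1406 on the square root scale and 1694 without 90 min. Early density went from 122 to 56 with a linear term, 5 without 0 min and 328 without 30 min. Density at 16 h went from 48 to 25 with DESeq2, 27 without the time-point block, and 26 to 144 when a time point was left out. The time-point block, which pairs input and footprints of 1 lysate, is part of the density models; the labels give no replicate numbers that would pair libraries of different times. Dusp5 in density level passed with total counts (-0.35). Counts of 3 to 14 for Dusp5 and Dusp6 limit their early folds and densities.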
